A study of Mus musculus with 2 samples.

Results

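The zinc finger protein promoters described here are the windows of 1 kb on either side of the transcription start site (TSS) of every autosomal protein-coding gene whose symbol is Zfp followed by a digit, and they number 385 of 20807 autosomal protein-coding promoters. The TSS was the outermost 5′ end that the mouse annotation gives the gene on the mm10 build. The members were split by gene density alone. Those with 5 or more other members within 500 kb were called clustered (145), those with none lone (122), and those with 1 to 4 were called members with few neighbours (118). The rule uses symbols and positions and no value of accessibility.

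The data were single-cell ATAC-seq (scATAC-seq), in which a transposase cuts accessible DNA and each sequenced fragment carries the barcode of the nucleus it came from. One library, called Young, was made from hematopoietic stem cells (HSCs) of 10-week-old C57BL/6 mice, and the other, called Aged, from HSCs of 20-month-old mice of the same strain. The study used female mice and names no transgene or treatment for them, the number of mice behind each library is not given in the sources used here, and in both groups the bone marrow cells had been sorted as positive for c-kit, Sca-1 and CD150 and negative for lineage markers, Flt3, CD48, CD34 and what the labels write as IL-7. With 1 library per age there was no replicate, so no test between ages was possible: intervals of counts, shares and ratios are exact 95% binomial intervals that cover counting error only, those of medians are 95% order-statistic intervals over promoters, those of a ratio of 2 ratios are approximate, and age cannot be told apart from library.

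Zinc finger proteins of the C2H2 type bind DNA through tandem fingers, each of which holds a zinc ion. Many carry an N-terminal KRAB domain, which recruits the corepressor encoded by Trim28 and through it the H3K9 methyltransferase Setdb1 and heterochromatin proteins, and these KRAB proteins are best known for silencing retroelements and protecting imprints. The KRAB genes expanded by local duplication, so many lie in dense clusters, while the lone genes include regulators that are conserved across vertebrates and some that bind RNA. A pattern search of the translated coding sequences found a KRAB A box in 93 of the 145 clustered members, 75 of the 118 with few neighbours and 20 of the 122 lone ones.

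RefSeq held a promoter of 300 bases (250 before and 50 after the start, GRCm38.p6) within 1 kb of the start used here for 290 of the 385 members. Those of the members at the ends of the comparison are printed first: Zfp804a and Zfp804b had the highest ratios of aged to young and Zfp819 was among the lowest. Zfp78 and Zfp687 had the most fragments in Young, and Zfp712 had the most in the largest cluster. Zfp366 and Zfp51 were also chosen and had no entry. Capitals mark the words found for 3 motifs: GGGCGGG, bound by SP and KLF factors, CACGTG, the E-box, and CCAAT, bound by NF-Y, each on either strand.
Zfp804a (chr2:82053408-82053707, plus strand): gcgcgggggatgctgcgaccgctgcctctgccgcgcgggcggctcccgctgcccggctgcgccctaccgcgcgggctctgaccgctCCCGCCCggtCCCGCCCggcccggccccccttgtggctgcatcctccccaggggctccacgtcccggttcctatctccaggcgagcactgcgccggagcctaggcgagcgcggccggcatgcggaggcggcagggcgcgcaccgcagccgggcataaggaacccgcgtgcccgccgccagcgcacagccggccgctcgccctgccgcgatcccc
Zfp804b (chr5:7344329-7344628, minus strand): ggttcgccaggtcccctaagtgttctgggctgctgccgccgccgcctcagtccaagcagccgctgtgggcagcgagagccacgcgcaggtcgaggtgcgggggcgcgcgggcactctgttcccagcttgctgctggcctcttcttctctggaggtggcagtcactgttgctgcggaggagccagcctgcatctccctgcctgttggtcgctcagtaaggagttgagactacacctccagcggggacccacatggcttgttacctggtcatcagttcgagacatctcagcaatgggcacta
Zfp819 (chr7:43606919-43607218, plus strand): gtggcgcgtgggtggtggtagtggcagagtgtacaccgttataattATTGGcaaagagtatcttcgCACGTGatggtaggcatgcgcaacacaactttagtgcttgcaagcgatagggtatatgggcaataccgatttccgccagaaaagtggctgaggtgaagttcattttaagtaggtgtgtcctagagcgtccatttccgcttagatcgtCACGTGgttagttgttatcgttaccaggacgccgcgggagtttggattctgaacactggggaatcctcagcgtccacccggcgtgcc
Zfp78 (chr7:6363058-6363357, plus strand): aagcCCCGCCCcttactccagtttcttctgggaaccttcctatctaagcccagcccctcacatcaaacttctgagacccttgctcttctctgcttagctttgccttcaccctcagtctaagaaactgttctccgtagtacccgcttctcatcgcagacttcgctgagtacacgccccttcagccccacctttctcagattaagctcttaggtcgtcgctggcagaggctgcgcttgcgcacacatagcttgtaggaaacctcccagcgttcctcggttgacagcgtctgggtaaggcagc
Zfp687 (chr3:95015408-95015707, minus strand): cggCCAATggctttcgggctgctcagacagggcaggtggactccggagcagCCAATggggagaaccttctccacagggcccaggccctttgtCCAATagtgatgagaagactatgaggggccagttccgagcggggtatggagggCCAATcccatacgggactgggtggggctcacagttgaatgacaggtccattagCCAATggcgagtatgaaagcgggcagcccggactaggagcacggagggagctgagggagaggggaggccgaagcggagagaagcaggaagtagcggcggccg
Zfp712 (chr13:67061121-67061420, minus strand): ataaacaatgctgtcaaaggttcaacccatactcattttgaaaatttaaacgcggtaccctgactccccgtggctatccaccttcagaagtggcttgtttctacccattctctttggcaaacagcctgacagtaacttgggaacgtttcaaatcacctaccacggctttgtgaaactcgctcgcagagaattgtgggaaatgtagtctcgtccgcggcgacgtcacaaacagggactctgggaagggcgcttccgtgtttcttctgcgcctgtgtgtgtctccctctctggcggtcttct
The sequences ranged from 50% GC at Zfp712 to 79.3% at Zfp804a, which holds 45 CpG dinucleotides. Zfp687 holds CCAAT 5 times and Zfp819 holds the E-box 2 times. No searched word was found in the printed bases of Zfp804b or Zfp712.

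Of 13 words searched across the family, an extended NF-Y word had the largest difference in share from all promoters. The extended NF-Y word CCAATCA was found in 59 of 290 member promoters (20.3%, interval 15.9 to 25.4), against 9.57% of the 13566 autosomal promoters with a RefSeq entry. Within the family it was found in 35 of 83 promoters of members with few neighbours (42.2%, interval 31.4 to 53.5), 12 of 116 clustered (10.3%) and 12 of 91 lone ones (13.2%). Of those 35, 13 lie on chromosome 2, among them Zfp937, Zfp442, Zfp345 and Zfp971, and copies made by duplication share sequence, so they are not independent. The shorter core CCAAT was in 48.6% of member promoters and 38.4% of all. The word ACTACAATT, bound by ZNF143, was in 9 of 290 members (3.10%, interval 1.43 to 5.81) and 0.59% of all promoters, and 7 of the 9 were clustered members. The AP-1 word TGANTCA was in 2.76% of members and 6.56% of all, and TATAAA in 5.86% of members and 11.2% of all. GGGCGGG was in 30.7% of members and 38.5% of all, and CACGTG in 8.28% and 8.66%. The remaining words were CCGGAAGT for ETS factors (8.97% of members and 6.19% of all), CGCATGCG for NRF1 (4.48% and 2.97%), GAGGAAGT for PU.1 (4.14% and 3.33%), TGACGTCA for CRE-binding factors (3.45% and 2.70%), AAGATGGCG for YY1 (2.76% and 2.23%) and TTTCCCGC for E2F factors (2.07% and 1.67%). A match describes the letters in these windows and not binding.

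The Young library held 53786133 unique fragments and the Aged library 48333115. After keeping barcodes called as cells with 3000 to 20000 fragments in the authors' peaks, 4887 young and 3405 aged cells remained, with medians of 9890 and 11020 fragments per cell, and 26 of the kept barcodes occurred in both libraries. Levels are given as fragments per 1000000 (FPM) of the autosomal fragments that fell in own peaks, 33893730 in Young and 25569846 in Aged. Own peaks were called here in each library alone and then merged. The sorted identity was checked at marker promoters: 9 of 10 HSC markers had an own peak, with a median of 19.3 FPM in Young and 18 in Aged, and the exception was Mecom, whose outermost start lies 38521 bp from its start with the most cut sites. The summed levels of 4 B-cell markers were 12 and 9.23 FPM, of 4 T-cell markers 6.28 and 3.29 and of 5 mature myeloid markers 15.3 and 17.7, and Cd14 made up most of the last sum, with 12.7 and 15.4. The part of these cells in the results below was not tested.

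Most zinc finger promoters were accessible in HSCs. An own peak lay in the window of 330 of the 385 members (85.7%), against 70.5% of all promoters. The share was 124 of 145 for clustered members (85.5%, interval 78.7 to 90.8), 97 of 118 for those with few neighbours (82.2%) and 109 of 122 for lone members (89.3%). Median levels in Young were 22.1 FPM for clustered, 20.1 for few neighbours and 32.8 for lone members, against 15.9 for all promoters, and in Aged they were 22.0, 20.2, 30.4 and 16.5. In the median cell 69 young and 71 aged fragments fell at the members together, 1.02% and 0.98% of that cell's fragments in own peaks.

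The members with no fragments lay in repeated sequence. No fragment of either library was assigned to 13 members, 7 of them on chromosomes 2 and 10 (Zfp965, Zfp966, Zfp967, Zfp968, Zfp969, Zfp973 and Zfp781) and 6 on chromosome 4. In all 7 of the first set, 0% of the 31-base words of the window were unique in the genome, and in the 6 on chromosome 4 (Zfp600, Zfp978, Zfp979, Zfp986, Zfp989 and Zfp993) from 1.83% to 12.4% were. Fragments that map to several places are not counted, so accessibility at these 13 could not be measured. In all, 115 members had under 90% unique words, 56 of them clustered and 11 lone, and 71 of the 115 had an own peak, against 259 of the 270 with more unique sequence.

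**Figure D1:**
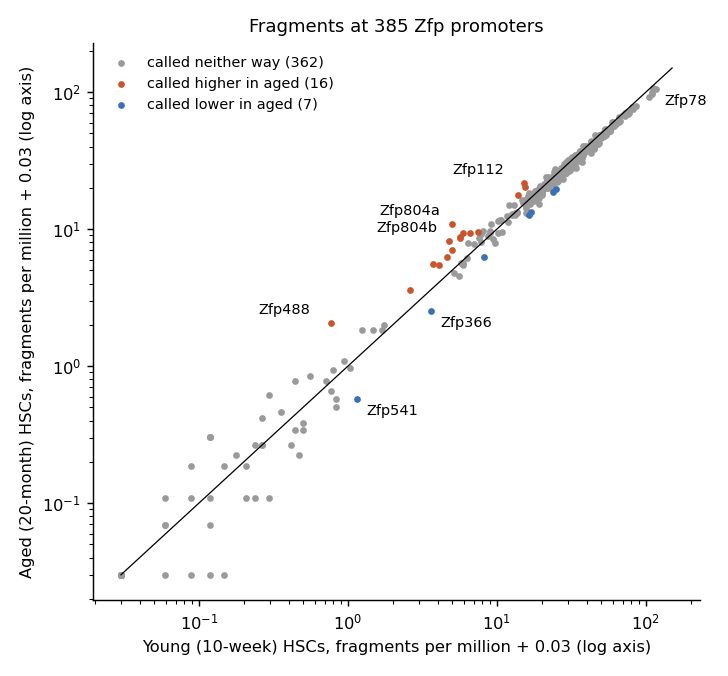
Fragments per 1000000 in-peak fragments at each of the 385 member promoters in Young (horizontal) and Aged (vertical), both on log axes with 0.03 added so that promoters at 0 can be drawn; the line marks equal levels. Most points follow the line closely above 20 FPM, and the 16 members called higher and 7 called lower in Aged sit mostly at lower levels.

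Over the whole family the median ratio lay close to that of all promoters. The log2 ratio of aged to young had a median of -0.052 (interval over promoters -0.067 to -0.037) for the 385 members and -0.044 for all 20807 promoters, with 250 of the 372 members with fragments below 0 (67.2%) and 122 above, against 60.3% of all promoters with fragments below 0. Scaled to the fragments in all promoters, 192 of the 372 (51.6%) and 48.3% of all were below 0. The 13 members without a fragment enter these medians at 0, and over the promoters with at least 1 fragment, an alternative chosen after seeing the data, the medians were -0.058 for the members and -0.048 for all. Summed over members, 349827 young and 252731 aged fragments gave a ratio of 0.958 (interval 0.953 to 0.963), against 0.963 over all promoters, and the ratio of these ratios was 0.995 (0.989 to 0.9997). Both values depend on the scaling, since promoters as a whole took a smaller share of in-peak fragments in Aged. With the libraries scaled to the fragments in all promoters instead, the median over promoters with at least 1 fragment was -0.003 for the members and 0.007 for all. The distance between the medians of members and all promoters was -0.009 on the log2 scale and lay between -0.032 and -0.003 in the 16 other settings that could move it.

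Clustered and lone members did not separate. The median log2 ratio was -0.049 (interval -0.076 to -0.020) for clustered members, -0.047 (-0.077 to -0.004) for those with few neighbours and -0.059 (-0.088 to -0.033) for lone members. The difference of clustered minus lone was 0.010, with an interval of -0.027 to 0.051 combined from both medians. Of the members without a fragment 4 were clustered, 9 had few neighbours and 0 were lone, and without them the clustered median was -0.058 and the difference 0.0005. The summed ratios were 0.956 (0.948 to 0.965) for clustered members, from 121135 young and 87403 aged fragments, and 0.955 (0.948 to 0.963) for lone members, from 140425 and 101214. The ratio of clustered to lone ratios was 1.001, with an approximate interval from the counts of 0.989 to 1.013. With at least 3 others within 500 kb, at least 5 within 250 kb or at least 5 within 1 Mb as the definition of a cluster, the difference of the medians was from 0.010 to 0.011.

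**Figure D2:**
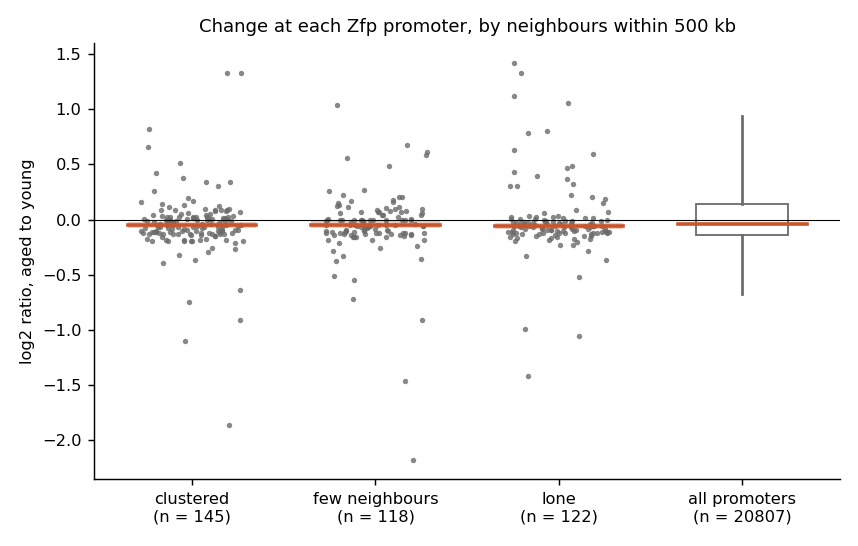
Log2 ratio of aged to young at each member (points), by the number of other members within 500 kb; the red line is the median and the band its 95% interval over promoters. For all 20807 promoters the box spans the quartiles and the whiskers the 5th to the 95th percentile; the medians, -0.049, -0.047, -0.059 and -0.044, which count promoters without a fragment at 0, lie close together.

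The clustered members were compared with their neighbourhood. The 439 other promoters within 500 kb of a clustered member had a summed ratio of 0.939 (0.934 to 0.943) and a median log2 ratio of -0.081, below the 0.956 of the clustered members (ratio of the ratios 1.019, interval 1.009 to 1.029). Of the 439, 22.6% share a window with another gene, and a fragment there was counted at each. The 2063 other promoters within 500 kb of a lone member had a ratio of 0.95 (0.947 to 0.952). A related set by name, the 70 Zbtb, Zkscan and Zscan genes, had 0.945 (0.934 to 0.955).

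The maxima of the accessible site lay at the same positions in both libraries, while their heights changed by unlike amounts. Cut sites peaked in the 50 bp bin centred 25 bp upstream of the TSS in both groups of members and both ages. In that bin clustered members had 5.66 cut sites per promoter, scaled as FPM, in Young and 5.16 in Aged, a ratio of 0.912. Lone members had 5.59 and 5.18, a ratio of 0.926, and all promoters had a ratio of 0.923. A second maximum stood 225 bp downstream, beyond a trough, where clustered members had 2.88 and 2.87 (0.996) and lone members 2.70 and 2.55 (0.947). The ratio of all promoters there was 0.974. Beyond 1.5 kb fewer cut sites were counted around clustered than lone members, with 0.082 against 0.200 per bin, scaled as FPM, in Young. All promoters had 0.155. Fragments that map to several places are not counted, and 56 clustered but 11 lone members had under 90% unique words in their windows. The part of repeated sequence in this difference was not tested. Fragments shorter than the DNA wrapped around a nucleosome made up 63.5% of the fragments at clustered members in Young and 59.5% in Aged, 68.2% and 65.1% at lone members, and 67.6% and 64% at all promoters. The lower share of short fragments in Aged was thus shared by all promoters. With short fragments alone the median log2 ratio was -0.056 for clustered and -0.035 for lone members, so the sign of their difference turned (-0.021).

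**Figure D3:**
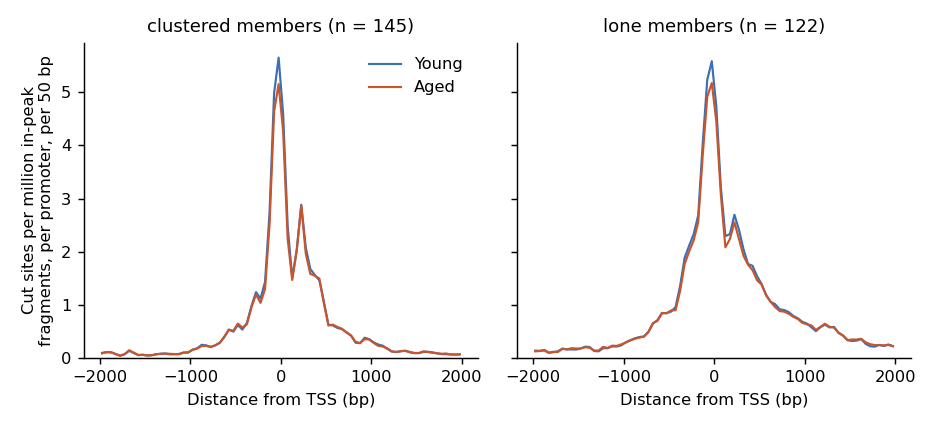
Cut sites per 1000000 in-peak fragments, per promoter and 50 bp bin, by distance from the TSS (bp; negative is upstream) for clustered and lone members in Young (blue) and Aged (red). The Aged curve is lower in the main peak at -25 bp in both panels; downstream at 225 bp the curves meet at clustered members (2.88 and 2.87) and not at lone members (2.70 and 2.55).

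Members with a KRAB pattern had a higher summed ratio than those without it. The pattern is a fixed form of the KRAB A box and can miss variants, so members without it may still carry the domain. It was found in 0 of the 12 members of the chromosome 7 cluster from Zfp180 to Zfp575. The 188 with the pattern had a summed ratio of 0.970 (0.962 to 0.978), the 197 without it had 0.951 (0.944 to 0.957), and the ratio of the ratios was 1.020 (1.009 to 1.031). All 13 members without a fragment carry the pattern. Over members with at least 1 fragment the median log2 ratio was -0.044 (interval -0.068 to -0.010) with the pattern and -0.063 (-0.092 to -0.050) without it, whose intervals overlap. Among clustered members the ratios were 0.964 (0.952 to 0.975) for 93 with and 0.948 (0.936 to 0.96) for 52 without, whose intervals overlap. Among lone members they were 0.976 (0.955 to 0.998) for 20 and 0.952 (0.944 to 0.96) for 102, whose intervals also overlap. The 75 genes outside the Zfp symbols with a KRAB pattern and at least 3 C2H2 patterns had 0.982 (0.965 to 0.9995), with an own peak in 41. Of these 75 genes 63 had under 90% unique words, and their median level in Young was 2.45 FPM. Under 50 fragments were counted at 35 of them, including 13 with none, so the ratio describes the others. GC content, repeats and level moved with the pattern. KRAB members had a median GC content of 52.0% around the TSS against 57.3% without the pattern, 88 of the 188 against 27 of the 197 had under 90% unique words, and the median level in Young was 19.5 against 31.9 FPM. Among members with an own peak and at least 90% unique words the median log2 ratios were -0.054 for 98 with and -0.074 for 161 without, with overlapping intervals. Their part in the difference was not tested further.

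GC content separated the members as it did all promoters. Among promoters with an own peak, split into 5 equal groups by GC content, the median log2 ratio of all promoters went from -0.028 in the lowest group (24.2% to 52.3% GC) to -0.066 in the highest (64.7% to 80.8%). For the members in those groups it went from -0.017 (115 members) to -0.109 (43 members). The interval of the members in the highest group, -0.126 to -0.067, and that in the lowest, -0.056 to 0.014, did not overlap. Of clustered members with an own peak 58 of 124 fell in the lowest group, and of lone ones 18 of 109. Within that lowest group the clustered median was -0.024 and the lone median -0.045. In the other 4 groups the clustered median was the lower one, with -0.045 against -0.038, -0.127 against -0.069, -0.123 against -0.060 and -0.138 against -0.100 from the second to the highest, although the 2 highest held only 5 clustered members each. With and without a KRAB pattern the medians were -0.015 and -0.033 in the lowest group, then -0.046 and -0.060, and -0.046 and -0.121. In the 2 highest they were -0.173 and -0.065, and -0.332 and -0.109, with only 6 and 1 members with the pattern. The 47 members whose window overlaps that of another gene had a summed ratio of 0.934 (0.923 to 0.946) and the 338 others 0.963 (0.957 to 0.968).

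The clusters differed from each other. Chains of clustered members less than 500 kb apart gave 14 clusters of 2 to 23 members and a single member, Zfp936, whose neighbours were themselves not clustered. The summed ratio ran from 0.904 (0.876 to 0.933) to 1.016 (0.990 to 1.043), and the extremes did not overlap. The lowest was the cluster of 6 on chromosome 7 from Zfp628 to Zfp580 (chr7:4915217-5051538), where all 6 were below 0, from -0.18 at Zfp524 to -0.04 at Zfp580. The next, also of 6 on chromosome 7 (Zfp787 to Zfp28, chr7:6155997-6383295), had 0.913 (0.888 to 0.94), again with all 6 below 0. In the cluster from Zfp553 to Zfp668 (chr7:127233061-127876828), which spans 24 other promoters, all 10 members were below 0, with 0.923 (0.899 to 0.949). The other promoters inside these domains had similar ratios, 0.925 (0.908 to 0.942) for the 24 of the Zfp553 domain and 0.908 (0.882 to 0.935) for the 8 of the Zfp628 domain, while the 4 of the Zfp787 domain were at 0.972 (0.844 to 1.118). A fragment in overlapping windows was counted at each, and the window of Zfp524 overlaps that of another gene, so these sums can share fragments. In these 3 clusters no member fell by enough to be called lower. The counts below 0 in single clusters use in-peak scaling and were not repeated with promoter scaling. Of all promoters with fragments 60.3% were below 0 with in-peak scaling and 48.3% when scaled to the fragments in all promoters.

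At the other end stood the cluster of 18 on chromosome 17 from Zfp677 to Zfp946 (chr17:21383748-22424222), with 12737 young and 9764 aged fragments. Of its members 11 were above and 7 below 0, and those with at least 100 fragments lay between -0.09 at Zfp983 and 0.20 at Zfp820. The largest cluster, 23 members on chromosome 13 (Zfp712 to Zfp273, chr13:67061170-67813740), had 0.989 (0.964 to 1.015), with 11 above and 12 below 0. The second cluster of chromosome 17 (12 members, Zfp871 to Zfp101) had 0.986 (0.956 to 1.017). On chromosome 4 the 13 members from Zfp987 to Zfp933 held 1722 young and 1200 aged fragments in all, and 725 and 509 of these were at Zfp984 and 956 and 659 at Zfp933, the only members there with an own peak. The median share of unique words in that cluster was 13.8%, so its ratio of 0.924 (0.857 to 0.995) describes Zfp984 and Zfp933.

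A cluster of mixed direction lay on chromosome 7 between Zfp180 and Zfp575 (chr7:24081924-24587641). Its 12 members summed to 1.003 (0.967 to 1.041), but Zfp112 had 518 young and 558 aged fragments, a log2 ratio of 0.51 (0.34 to 0.69), and Zfp109 had 254 and 243 (0.34, interval 0.08 to 0.60). Both were called higher. Zfp109 lost its call scaled to all autosomal fragments, with short fragments, in cells with 5000 to 15000 in-peak fragments and with uncalled barcodes included. With a fold of 1.5 as the limit neither was called. Zfp180 in the same cluster had 1600 and 1071 (-0.17, interval -0.29 to -0.06) and Zfp114 had 328 and 202 (-0.29, interval -0.55 to -0.04). Between them Zfp235, with 606 and 483, was at 0.08.

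Over the 14 clusters the summed ratio was lower where the median GC content of the members was higher (Spearman's rho -0.73, Pearson's r -0.48). The clusters share both libraries and 9 of them share a chromosome with another, so this describes 14 points that are not independent. Against the share of unique words rho was -0.51 but r was 0.03. Against the median of the chromosome they were -0.48 and -0.44, and against the ratio in the rest of the domain -0.15 and -0.10.

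**Figure D4:**
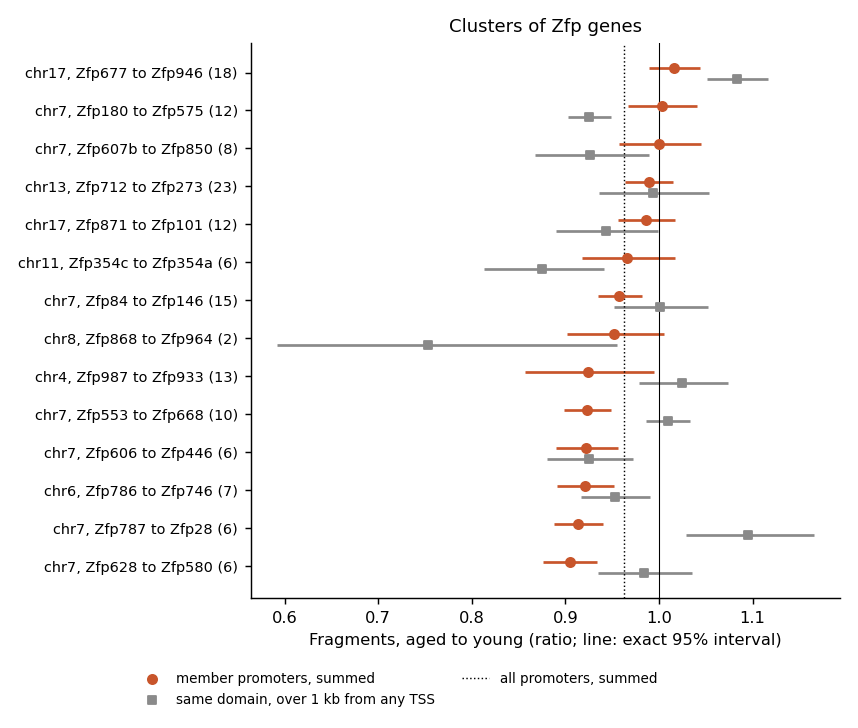
Ratio of aged to young fragments in each of the 14 clusters of 2 or more members (number in brackets), ordered by the ratio at member promoters (red circles) and with that of the domain between the first and last member, over 1 kb from any annotated start (grey squares); lines are exact 95% intervals and the dotted line is the 0.963 of all promoters. Member promoters run from 0.904 to 1.016 and the domain values follow no such order.

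Outside promoters the cluster domains had a lower ratio than the autosomes as a whole. Over 6.38 Mb between the first and last members and over 1 kb from any annotated start, 74696 young and 55495 aged fragments gave a ratio of 0.985 (0.974 to 0.996). The same measure over 2312 Mb of all autosomes was 1.051. The side of 1 on which the domains lay depended on the scaling: scaled to the fragments in all promoters, an alternative chosen after seeing the data, the ratio was 1.023 (1.012 to 1.034) in the domains and 1.092 over the autosomes. Pooled over all domains, density was close to that elsewhere, 345 FPM per Mb in Young against 382, and 340 in Aged against 401. Single domains were far from that pooled density. The domain on chromosome 4 held 4171 young fragments over 1613 kb, and that from Zfp553 to Zfp668 held 16552 over 493 kb. Dense domains therefore weigh most in the pooled density and ratio. With in-peak scaling, the ratios of single domains ran from 0.754 (0.592 to 0.955, 27 kb on chromosome 8) to 1.095 (1.029 to 1.165, Zfp787 to Zfp28). The domain of the chromosome 17 cluster from Zfp677 to Zfp946 was at 1.083 (1.051 to 1.116).

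Single members were called higher where at least 50 fragments were counted in both libraries together, the Aged level was higher by at least 25% and the interval of the ratio lay above 1, and lower where the level was lower by at least 20% with the interval below 1. Of 15467 promoters tested, 7.93% were called higher and 2.37% lower. Of 334 members tested, 16 were called higher (4.79%), a share below that of all promoters. Lower calls were made at 7 members (2.10%), a share close to that of all promoters. Among promoters with at least 90% unique words, the share called lower was larger in the members than in all promoters. The lower calls therefore did not set the members apart. With short fragments alone 7 members were called higher and 9 lower, against 6.24% and 3.32% of all promoters tested. Scaled to all promoter fragments 18 and 3 members were called, against 9.62% and 1.65%, with a trimmed mean of log ratios over promoters (TMM) as the scaling 18 and 4, against 9.36% and 1.78%, and with a fold of 1.5 as the limit 7 and 1, against 3.81% and 1.03%. Calls gathered at low levels in the family and elsewhere: 13 of the 16 higher and 3 of the 7 lower members were in the lowest of 5 groups by level, up to 8.69 FPM, which held 33 of the 334 members. In that group 39.4% of the members and 22.8% of all promoters were called higher, and the median log2 ratio was 0.23 for the members and 0.09 for all. The next group went the other way, with 3 of 80 members (3.75%) and 14.5% of all called higher and medians of -0.03 and 0.06. None of the 122 members in the 2 highest groups was called. Of all promoters there, 0.42% and 0.10% were called higher and 0.36% and 0.13% lower. By group, 3 of 124 clustered members were called higher and 0 lower, 4 and 3 of 97 with few neighbours, and 9 and 4 of 113 lone members.

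The highest ratios of the members with at least 100 fragments were at a pair of paralogues. Zfp804a (chr2:82052222-82054222), a neuronal gene with a single C2H2 finger, had 168 fragments in Young and 276 in Aged, 4.96 and 10.8 FPM, a log2 ratio of 1.12 (0.84 to 1.41). Zfp804b (chr5:7343756-7345756) had 160 and 208, 4.72 and 8.13 FPM, a log2 ratio of 0.78 (0.48 to 1.09). In Young they stood at percentiles 36.4 and 36.0 of all promoters by level. The fragments were spread over many cells: 164 of 4887 young cells (3.36%, interval 2.87 to 3.90) and 246 of 3405 aged cells (7.22%, interval 6.38 to 8.15) had at least 1 at Zfp804a, and no cell had more than 3. At Zfp804b they were 154 young (3.15%) and 193 aged cells (5.67%). Both stayed called in each setting of scaling, window, start, fragment length and cells, and with a fold of 1.5 as the limit. The shares of cells were not corrected for the deeper aged cells, whereas the FPM values are per fragment.

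**Figure D5:**
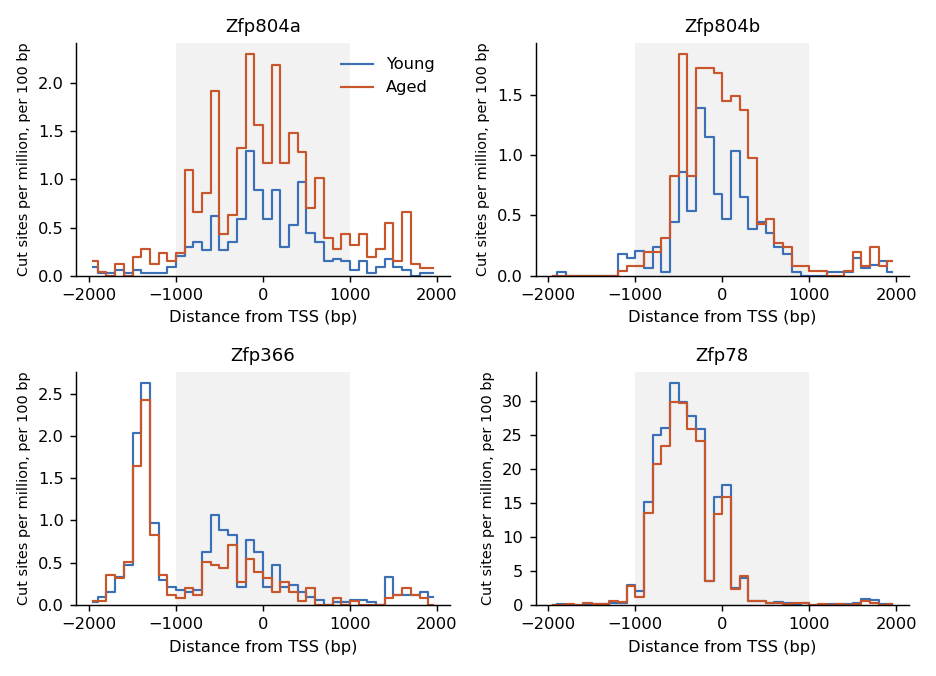
Cut sites per 1000000 in-peak fragments in 100 bp bins by distance from the TSS (bp) at Zfp804a, Zfp804b, Zfp366 and Zfp78 in Young (blue) and Aged (red); the grey band is the window counted, and the vertical scales differ. Aged is higher over most of the window at Zfp804a and Zfp804b, lower at Zfp366, where the tallest site lies upstream of the window, and slightly lower across the tall site of Zfp78.

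Of the 10 highest, 5 lie on chromosome 2. Zfp663 and Zfp334 are neighbours there, with starts at 165368729 and 165388259. Zfp663 had 199 and 240 fragments (0.67, interval 0.40 to 0.96) and Zfp334 had 224 and 237 (0.49, interval 0.22 to 0.76), while Zfp335 in the same region had 1749 and 1282 (-0.04). On the same chromosome Zfp937 had 191 and 221 (0.61, interval 0.33 to 0.90), with only 37.0% unique words, and its neighbour Zfp120 had 1420 and 1033 (-0.05). Chromosome 2 as a whole had a median log2 ratio of -0.038 over 1843 promoters. The other 4 of the 10 highest were Zfp960 on chromosome 17 (125 and 142, 0.59), Zfp112 as above, the neural regulator Zfp536 (169 and 179, 0.49, interval 0.18 to 0.80) and Zfp57. Zfp960 had 48.0% unique words, and with short fragments it was at 0.18 (interval -0.39 to 0.75). With short fragments Zfp937, Zfp960, Zfp536 and Zfp57 were not called. With a fold of 1.5 as the limit Zfp112, Zfp334, Zfp536 and Zfp57 were not called. Zfp536 had no own peak in its window, and at the annotated start with the most cut sites, 2859 bp away, it had 391 and 353 (0.26, interval 0.05 to 0.47), short of the fold required for a call. Zfp217 completes them and also depends on the start. At its outermost start on chromosome 2 (170148103) it had 191 and 224 (0.63, interval 0.35 to 0.92), but 16883 bp away, at the annotated start with the most cut sites, it had 1232 and 869 (-0.10, interval -0.22 to 0.03).

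Under 100 fragments, and so outside the naming rule and chosen after its values were seen, Zfp488 had 25 and 52 fragments, in 25 young and 50 aged cells, and the highest ratio of all called members (1.42, interval 0.75 to 2.21). Zfp488 acts in the oligodendrocyte lineage. Zfp541, a meiotic gene, was its counterpart with 38 and 14 (-0.99, interval -2.03 to -0.12). With short fragments neither gene was called. Zfp541 also lost its call with 500 bp on either side and in cells with 5000 to 15000 in-peak fragments.

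Among members with at least 100 fragments the lowest ratios were at Zfp366, Zfp819, Zfp365, Zfp658, Zfp362 and Zfp316, all 6 called lower. Zfp819 stayed called in each setting of scaling, window, start, fragment length and cells. With a fold of 1.5 as the limit none of these 6 members stayed called. Scaled to all promoter fragments Zfp316, Zfp362, Zfp365 and Zfp658 were not called, and with TMM Zfp316, Zfp362 and Zfp658 were not. With 500 bp on either side Zfp366 (-0.51, interval -1.05 to 0.004) and Zfp362 (-0.25) were not, and with short fragments Zfp366 (-0.62, interval -1.35 to 0.05) was not. Zfp362 and Zfp658 lost their call in cells with 5000 to 15000 in-peak fragments, and Zfp316 with barcodes not called as cells included. Zfp366 (chr13:99183823-99185823), known as DC-SCRIPT in dendritic cells, had 122 and 64 fragments, 3.60 and 2.50 FPM (-0.52, interval -0.98 to -0.08). Zfp819 and Zfp658 are 44.9 kb apart on chromosome 7: Zfp819 had 276 and 160 (-0.38, interval -0.67 to -0.09) and Zfp658 had 843 and 498 (-0.35, interval -0.52 to -0.19). Zfp365 had 556 and 325 (-0.37, interval -0.57 to -0.17), Zfp362 had 802 and 480 (-0.33) and Zfp316 had 571 and 342 (-0.33). Of the next 4, Zfp583 (646 and 390, -0.32), Zfp114 (-0.29) and Zfp346 (1159 and 718, -0.28) had intervals below 0 but changed by less than the fold required, and Zfp872 (187 and 116, -0.28) had an interval that included 0. The windows of Zfp366, Zfp365, Zfp658, Zfp362 and Zfp316 had from 96.7% to 100% unique words.

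With in-peak scaling the 5 members with the most fragments in Young were lower in Aged by small amounts. They were chosen by their Young level, a choice that itself leans towards lower ratios. Zfp78, a clustered KRAB gene, had 3942 and 2716 fragments, 116 and 106 FPM (-0.13, interval -0.20 to -0.06), and at least 1 fragment in 54.1% of young and 53.2% of aged cells. Zfp687 had 3783 and 2761 (-0.05, interval -0.12 to 0.02). Zfp91, a regulator of NF-κB signalling, had 3717 and 2474 (-0.18, interval -0.25 to -0.11), in a window shared with another gene. Zfp143, which binds promoters widely, had 3703 and 2550 (-0.13, interval -0.20 to -0.06), and Zfp524 had 3565 and 2373 (-0.18, interval -0.26 to -0.11). In the highest of the 5 level groups the median was -0.096 for 49 members and -0.093 for all 3094 promoters. The member with the most fragments in its cluster was below 0 in 12 of the 14 clusters, with an interval below 0 in 8 of them. Zfp712 (0.08, interval -0.04 to 0.20) and Zfp51 (0.04, interval -0.07 to 0.16) were above 0. Scaled to the fragments in all promoters 10 of the 14 were below 0. Of all promoters with an own peak 65.5% were below 0 with in-peak scaling and 50.2% with promoter scaling.

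By known role, the genes of the family that act on RNA or control broad programmes were accessible in both libraries. The counts below 0 in these lists stand against 60.3% of all promoters with fragments and 65.5% of those with an own peak, and scaled to the fragments in all promoters these shares were 48.3% and 50.2%. The 3 CCCH genes that drive mRNA decay were all below 0: Zfp36 had 2374 and 1730 fragments (-0.05), Zfp36l1 had 2113 and 1532 (-0.06) and Zfp36l2 had 2613 and 1788 (-0.14, interval -0.23 to -0.05). At Zfp36 the start with the most cut sites lies 998 bp from the one used, and a window of 500 bp on either side held 173 fragments in each library (0.40), so that value belongs to the edge of the site. All 11 broad regulators were below 0, from -0.18 at Zfp91 to -0.02 at Zfp64 with a median of -0.117, among them Zfp384 (-0.13), Zfp207 (-0.12), Zfp281 (-0.06), Zfp148 (-0.07), Zfp131 (-0.04) and Zfp326 (-0.04), and 0 of the 11 were called. They lay at 22.8 to 110 FPM in Young. Of all promoters in the middle of the 5 level groups, from 20.9 to 32.8 FPM, 1.84% were called higher and 1.07% lower. In the 2 groups above, 0.42% and 0.10% were called higher. Scaled to all promoters, 8 of the 11 were below 0, and 2 of the 3 CCCH genes.

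Of the 6 blood cell regulators 4 were below 0 and 1, Zfp217, was called higher at the start described above. Scaled to all promoters 2 of the 6 were below 0. Zfp521, a cofactor expressed in immature blood cells, had 1625 and 1150 fragments (-0.09, interval -0.20 to 0.02). Zfp385a had 1843 and 1253 (-0.15, interval -0.25 to -0.05), Zfp318 had 1654 and 1242 (-0.01), Zfp335 had -0.04, and Zfp423, a relative of Zfp521, had 601 and 472 (0.06, interval -0.12 to 0.23).

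Of the 7 genes that silence imprinted loci or retroelements 5 were below 0, and 4 when scaled to all promoters. Zfp57, which keeps methylation at imprints, had 87 and 91 fragments (0.47, interval 0.03 to 0.91) and was called higher with no own peak in its window, and at a start 1449 bp away it had 404 and 432 (0.50, interval 0.30 to 0.70). It was not called with 500 bp on either side (0.18, interval -0.81 to 1.16) or with short fragments (0.11, interval -0.62 to 0.84). Nor was it called when scaled to all autosomal fragments or in cells with 5000 to 15000 in-peak fragments. Zfp445, which also keeps methylation at imprints, had 704 and 518 (-0.04). Zfp809, which silences retroviruses, had 1588 and 1121 (-0.10, interval -0.21 to 0.02), Zfp568 had 803 and 555 (-0.13), Zfp932 had 733 and 532 (-0.06) and Zfp819 was called lower. Zfp708 had 11 in each library at its outermost start (0.37, interval -0.94 to 1.75), but 948 and 666 (-0.10, interval -0.25 to 0.04) at the start with the most cut sites, 16464 bp away, which would put 6 of the 7 below 0.

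Of 14 promoters of genes that work with KRAB proteins 11 were below 0, with a median of -0.084, and 0 were called either way. Scaled to all promoters 9 of the 14 were below 0. Setdb1 had 371 and 263 fragments (-0.09), Cbx5, a heterochromatin protein, 3465 and 2521 (-0.05), the chromatin remodeller Smarcad1 1116 and 730 (-0.21, interval -0.34 to -0.07) and Uhrf1, which recognises hemimethylated DNA, 1432 and 940 (-0.20, interval -0.32 to -0.08). Trim28 had 8 and 11 at its outermost start and 1936 and 1377 (-0.08) at the start with the most cut sites, 25038 bp away. Atf7ip, a partner of Setdb1, had 9 and 6 (-0.16) at its outermost start and 1561 and 1184 (0.008) at the start with the most cut sites, 12679 bp away. Neither had an own peak at its outermost start, and with both moved the count below 0 is again 11.

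Zfp36 and Zfp846 were named because a list of the study, drawn from other assays of such cells, holds the gene or a region in its window. Those lists were of 428 regions more open and 291 genes higher in aged HSCs, with 1 member each. The lists of the other direction held 0 members. The share of all promoters that these lists hold is not given here, so the counts are no result about the family. Zfp846 had 820 and 599 fragments (-0.05, interval -0.20 to 0.11). In the main window neither Zfp846 nor Zfp36 was above 0, and neither was called.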

How the data were processed

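The samples were grouped by their labels into Young and Aged, with 1 library each. The authors sequenced Chromium scATAC-seq libraries and used Cell Ranger ATAC with an mm10 reference to align reads, call cells and peaks and write the deposited tables, which hold counts of read pairs and fragments per barcode and the unique fragments themselves with a count of read pairs for each; they then filtered cells in Signac. Here the limits of 3000 to 20000 in-peak fragments were applied to called cells, which left 4887 and 3405 cells; the study's totals are larger, so its set of cells was not rebuilt by these limits. Doublets were not removed beyond the upper limit.

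A fragment was counted at a promoter where either end fell within 1 kb of the TSS of the GENCODE annotation. In overlapping windows it was counted at each promoter, so summed ratios can repeat a fragment and their intervals do not allow for that. Own peaks were windows of cut sites above a local or genome-wide Poisson background. They were called in each library alone and merged, so a peak in either library counted. Log2 ratios carry 1 fragment added after scaling; ratios carry exact binomial intervals and medians order-statistic intervals over promoters. The ratio of ratios has an approximate interval from the counts. The ratio, interval and call steps were tested on simulated data. Python 3.11.15 with NumPy 2.4.6, SciPy 1.17.1 and Numba 0.67.0 was used. Of the read pairs, 7.23% in Young and 7.88% in Aged were marked as of low mapping quality and gave no fragment.

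The members, lists and settings were chosen with earlier results of these data known. Named members were the 10 highest and 10 lowest ratios among those with at least 100 fragments, the 5 with the most fragments in Young, the one with the most fragments in each cluster, role lists, genes that work with KRAB proteins, and members in lists of the study. The KRAB, C2H2 and other patterns were searched in translated coding sequences. Promoter sequences came from RefSeq. A further marker list is not reported here.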

Additional observations from a re-analysis of the deposited data

Results flagged for a closer look

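The 9 Zfp genes on chromosome X lie outside the autosomal comparison and are data that it did not use. An own peak lay at 8 of the 9, and their summed ratio of aged to young was 0.972 (exact 95% interval 0.925 to 1.021), with 4 above and 5 below 0 and 0 called either way. Of the autosomal promoters tested 7.93% were called higher and 2.37% lower. Zfp182 had 437 and 268 fragments (log2 ratio -0.30, interval -0.52 to -0.08) and its neighbour Zfp300 had 360 and 249 (-0.12, interval -0.36 to 0.11).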

How the results depend on the processing

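With 1 library per age no replicate could be left out, and age, mouse and library cannot be told apart. No paired analysis was possible because each group has 1 library. The scaling moved every median. Scaled to all autosomal fragments, the medians were -0.085 (all members), -0.081 (clustered) and -0.091 (lone) and the summed ratios 0.935 (clustered) and 0.934 (lone). Scaled to all promoter fragments, the medians were 0 (all members), 0 (clustered) and -0.0043 (lone), or -0.0035, -0.0039 and -0.0043 without the members that have no fragment (4 clustered, 0 lone), the summed ratios 0.993 and 0.992, and 3 members were called lower. With TMM over all promoters the medians were -0.0075, -0.0042 and -0.014, the summed ratios 0.987 and 0.986, and 4 were called lower. Minus the median of the chromosome, the medians were -0.0080, -0.0087 and -0.016. With short fragments alone the lone summed ratio was 0.970, 7 members were called higher instead of 16 and 9 lower instead of 7 (6.24% and 3.32% of all promoters), and the domains outside promoters were at 0.969. With a fold of 1.5, 7 were called higher and 1 lower (3.81% and 1.03% of all promoters). Of the 16 members called higher 7 remained called with short fragments and 12 in cells with 5000 to 15000 in-peak fragments, and of the 7 called lower 5 and 4. The domain ratio was 0.963 scaled to all autosomal fragments and 0.997 outside own peaks, and 1.023 scaled to all promoter fragments, above 1 instead of below it. The difference of clustered minus lone medians was above 0 in 14 of the 16 alternatives other than scaling, and below 0 with short fragments (-0.021) and with members of at least 90% unique words (-0.0073). It ran from -0.021 to 0.023, all within its interval, with 0.0005 without members that have no fragment, 0.0015 at 100 fragments or more, 0.0043 scaled to promoters, 0.023 in cells with 5000 to 15000 in-peak fragments and 0.022 as the mean over cells. With short fragments the lone median was -0.035, also within its interval. Members with few fragments limit the single calls: 51 of 385 had under 50.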
